A study of Mus musculus with 10 samples.

Results

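The 10 genes described here belong to WNT signalling and were measured in mouse liver: the ligands Wnt2, Wnt4, Wnt5a and Wnt9b, the WNT agonist Rspo3, the receptors Fzd4, Lrp5 and Lrp6, beta-catenin (Ctnnb1) and its inhibitor Apc. They were chosen by name with earlier results of these data known, as were the gene lists below. These 10 genes were among 21613 named genes on the array. All 10 were measured well enough to be tested, among 14531 named genes and 22184 features in all (genes plus transcripts without a symbol). The livers came from male TG221 mice, a line on a B6D2F2 background that carries a miR-221 transgene. In the first group, 6 mice received metformin, a drug used against type 2 diabetes, together with carbon tetrachloride (CCl4), a solvent that injures hepatocytes and leads to fibrosis. In the second group, 4 mice received CCl4 alone. Every mouse carried the transgene and received CCl4 by gavage, at 20% by volume in olive oil and 3 times a week for 14 weeks, from an age of 4 to 6 weeks. Metformin was given daily at 300 mg/kg from week 3 after the first CCl4 dose, and the endpoint was 24 weeks. No mouse without CCl4 or without the transgene was analysed here, so the comparison is of metformin on top of CCl4, and the labels give the tissue both as liver and as hepatocellular carcinoma.

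WNT ligands are lipid-modified secreted proteins that bind a frizzled receptor and the co-receptor LRP5 or LRP6. In the absence of a ligand, a destruction complex built around APC and AXIN marks beta-catenin for degradation, and a bound ligand halts that complex, so that beta-catenin enters the nucleus and works with TCF factors on target genes. In the liver, WNT2, WNT9B and RSPO3 from endothelial cells around the central vein keep the hepatocytes next to it in their pericentral state. Beta-catenin protein is mainly controlled by degradation, which an array of transcripts does not measure.

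Each liver was measured once, on its own single-colour array. A level is the log2 probe intensity minus the 75th percentile of that array, so 0 is the brightness that 25% of the spots exceeded, and a level may be compared between mice for one probe but not between genes. The 75th percentile lay between 237.4 and 362.9 intensity units, and 51.2% to 54.9% of probes were well above background. All arrays of a group shared a slide and a scan, and the other group had another slide and scan, so slide and metformin cannot be told apart. All 13 hepatocyte markers tested were well above background in every liver. When arrays were scaled on the added control RNA (spike-in scaling) instead, the median difference over all features was -0.45 in place of 0.10, and differences relative to that median are therefore given for the members below.

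Of the 10 genes, 4 were higher in metformin plus CCl4 livers (Ctnnb1, Wnt2, Fzd4 and, on the brighter of its probes, Lrp6), 1 was lower (Wnt5a) and 5 did not pass the test (Wnt4, Wnt9b, Rspo3, Lrp5 and Apc). The dimmer Lrp6 probe was lower, so the direction of Lrp6 was not settled. The test was limma with Benjamini-Hochberg adjustment over all 22184 features, at an adjusted p of 0.05. By the same test 45.4% of all features were called, 28% higher and 17.4% lower. The members' share of 50% lies near that background and is no result about them as a group. In Ctnnb1, Wnt2 and Wnt5a the groups did not overlap, as was so for 33.6% of all features. With scaling on the control RNA, which called 47.6% of features in all, 4.23% higher and 43.4% lower, the direction of Ctnnb1, Wnt9b, Rspo3, Lrp6 and Apc turned and none of the 10 was called higher. A gene's difference from the median of all features is the same under both scalings by construction, since each shifts a whole array. By it, on the log2 scale, Wnt2 was higher by 0.96, Fzd4 by 0.85, Ctnnb1 by 0.40 and Lrp6 by 0.23, and Wnt5a stood at -0.88. Among the uncalled genes, Wnt4 stood at -0.96, Lrp5 at -0.43, Wnt9b at 0.19, Rspo3 at 0.018 and Apc at -0.012.

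**Figure D1:**
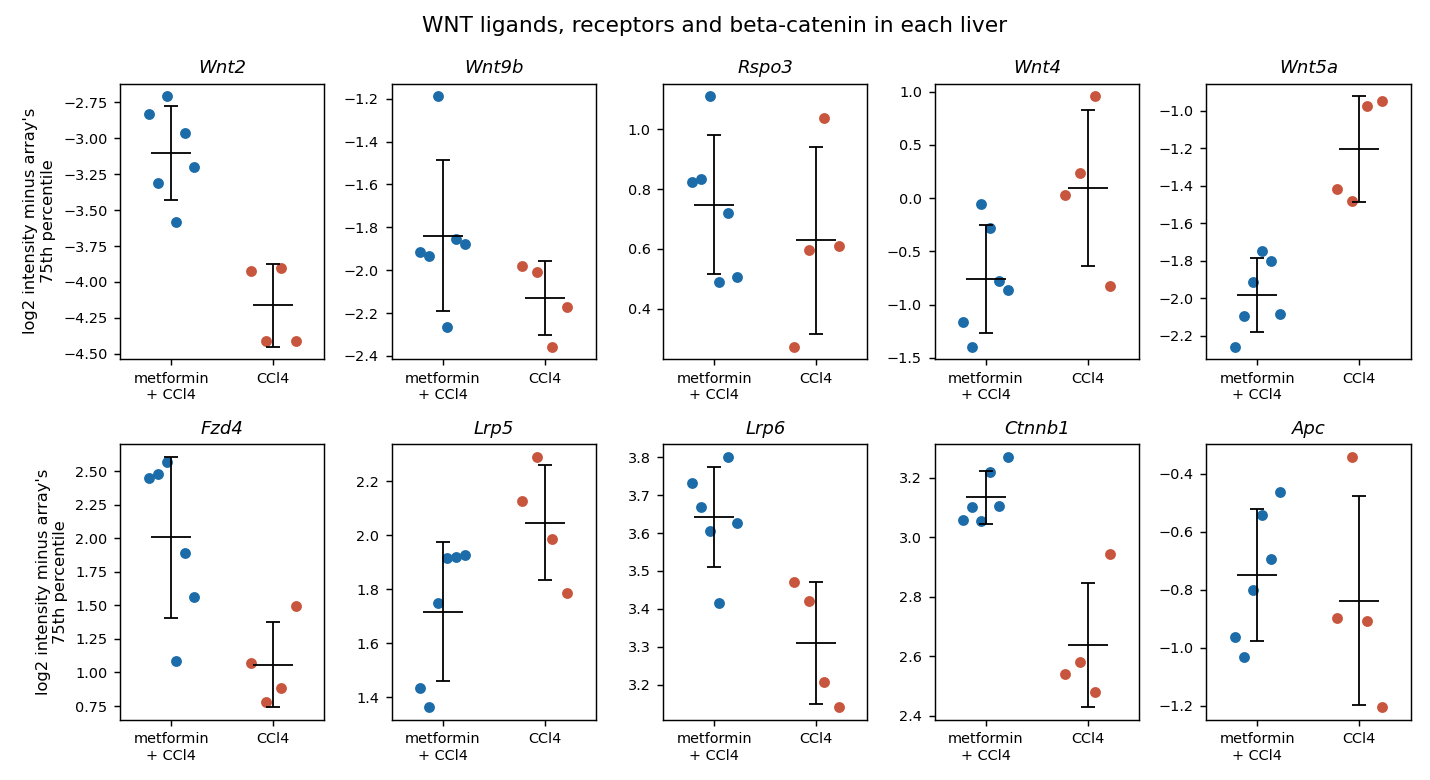
Level of each of the 10 genes in every liver (log2 intensity minus the array's 75th percentile), with 1 point per mouse, metformin plus CCl4 on the left and CCl4 on the right of each panel, and the mean with SD as bars. The groups are apart in Wnt2, Wnt5a and Ctnnb1 and overlap in the other 7 genes, and each panel has its own axis.

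The stretches just upstream of the transcription start are shown for the called members that the RefSeq promoter table (GRCm38.p6) lists, as a description. A link between these stretches and the changes was not tested. Each is 250 bases, 5′ to 3′ on the gene's strand, and capitals mark a GC box, the letters GGGCGG on either strand, which is a binding motif of SP1-type factors.
Ctnnb1, chr9:120933150-120933399, plus strand: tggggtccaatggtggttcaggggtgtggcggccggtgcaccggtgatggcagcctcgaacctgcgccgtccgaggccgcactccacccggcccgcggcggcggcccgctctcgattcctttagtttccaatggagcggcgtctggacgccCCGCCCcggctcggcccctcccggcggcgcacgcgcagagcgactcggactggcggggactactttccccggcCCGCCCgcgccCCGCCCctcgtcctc
Wnt2, chr6:18030446-18030695, minus strand: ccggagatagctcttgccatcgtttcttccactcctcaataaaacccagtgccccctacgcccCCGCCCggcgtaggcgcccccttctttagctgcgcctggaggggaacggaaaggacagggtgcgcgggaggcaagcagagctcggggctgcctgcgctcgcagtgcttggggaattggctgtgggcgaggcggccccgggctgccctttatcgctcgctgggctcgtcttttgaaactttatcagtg
Fzd4, chr7:89404116-89404365, plus strand: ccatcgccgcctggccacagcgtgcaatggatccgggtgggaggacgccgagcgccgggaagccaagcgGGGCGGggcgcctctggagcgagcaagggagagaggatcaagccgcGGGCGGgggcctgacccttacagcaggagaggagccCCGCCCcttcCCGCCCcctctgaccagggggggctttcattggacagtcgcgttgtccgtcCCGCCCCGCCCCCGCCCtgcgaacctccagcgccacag
The Ctnnb1 stretch lies before the first of its listed starts and holds 3 GC boxes, that of Wnt2 holds 1 and that of Fzd4 holds 7. A GC box is present in 32.7% of all 32851 such windows. The TCF/LEF motif (CTTTGAT or CTTTGAA, either strand) is in 7.5% of all windows and in 0 of the 5 members with a window, which are these 3 with Wnt4 and Wnt9b. GC content was 74.8% for Ctnnb1, 63.6% for Wnt2 and 72.8% for Fzd4, against a median of 52.4% over all windows.

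Wnt2, the ligand of central vein and sinusoidal endothelium, was 2.09-fold higher in metformin plus CCl4 livers. Its level in the 6 metformin plus CCl4 livers ran from -3.58 through a median of -3.08 to -2.71, against -3.93, -4.41, -3.91 and -4.41 in the 4 CCl4 livers. Every metformin plus CCl4 liver was above every CCl4 liver. The log2 fold change was 1.06 ± 0.19 (SE; 95% interval 0.65 to 1.48; limma adjusted p = 0.00125). Wnt2 was dim: its probe was well above background on 6 of 6 metformin plus CCl4 arrays and on 3 of 4 CCl4 arrays. With normexp background correction, which compresses dim probes, the log2 fold change was 0.30 and was still called, and with scaling on the control RNA it was 0.51 and was not (adjusted p = 0.0852).

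Wnt9b, the other endothelial ligand of the set, did not pass the test. Its level ranged from -2.27 through a median of -1.90 to -1.19 in metformin plus CCl4 livers, against -1.98, -2.01, -2.36 and -2.17 in CCl4 livers. The top value was that of metformin mouse 3, and 1 metformin plus CCl4 liver lay among the CCl4 livers. The log2 difference was 0.29 ± 0.18 (SE; 95% interval -0.11 to 0.69; limma adjusted p = 0.212), so the interval reaches a 1.61-fold higher level.

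Rspo3, the R-spondin that strengthens WNT signals by keeping frizzled receptors at the cell surface, was at 0.49 through 0.77 to 1.11 (lowest, median, highest) in metformin plus CCl4 livers. The 4 CCl4 livers had 0.27, 0.60, 1.04 and 0.61. The groups lay on top of each other, and CCl4 mouse 3 was higher than all but 1 metformin plus CCl4 liver. The log2 difference was 0.12 ± 0.16 (SE; limma adjusted p = 0.582), with a 95% interval of -0.24 to 0.48 that leaves room for a 1.40-fold higher level.

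Wnt5a, a ligand best known for signalling without beta-catenin and made by stellate cells and other mesenchymal cells, was 1.72-fold lower in metformin plus CCl4 livers. Its level ran from -2.26 through a median of -2.00 to -1.75 in metformin plus CCl4 livers, against -1.42, -1.48, -0.97 and -0.95 in CCl4 livers. The highest metformin plus CCl4 liver was below the lowest CCl4 liver. The log2 fold change was -0.78 ± 0.15 (SE; 95% interval -1.10 to -0.46; limma adjusted p = 0.00175), and Wnt5a was called lower in all 21 other fits, the scaling on control RNA included. The authors' deposited table of selected probes holds this probe too, with a log2 difference of -0.80 between its group means. Markers of stellate cells and myofibroblasts moved the same way: 16 of 21 fell and 0 rose, where 17.4% of all features fell and 28% rose. Their summed linear level was 134.8 to 220.0 in metformin plus CCl4 livers, against 215.1 to 287.7 in CCl4 livers. That sum is carried mostly by the bright probes of Dcn and Ecm1. The part of these marked cells in the Wnt5a result was not tested, and in whole liver fewer cells of a type and less RNA per cell cannot be told apart.

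Wnt4, a ligand known from kidney and gonad development, had a pair of usable probes. The brighter probe (A_66_P139703), which stands for the gene in the test, had levels of -1.39 through -0.82 to -0.06 in metformin plus CCl4 livers, against 0.03, 0.24, 0.96 and -0.82 in CCl4 livers. Mice 1 to 3 of the CCl4 group lay above all metformin plus CCl4 livers, and CCl4 mouse 4 lay among them. Its log2 difference was -0.86 ± 0.35 (SE; 95% interval -1.63 to -0.09; limma adjusted p = 0.0668), and without CCl4 mouse 4 it was -1.16 and passed (adjusted p = 0.0154).

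The dimmer Wnt4 probe (A_51_P130475) had levels of -5.16 through -4.71 to -4.12 in metformin plus CCl4 livers, against -2.86, -2.84, -1.92 and -3.28 in CCl4 livers. On it every metformin plus CCl4 liver was below every CCl4 liver, and it was well above background on 2 of 6 metformin plus CCl4 arrays and on 4 of 4 CCl4 arrays. The means were -4.65 ± 0.43 in metformin plus CCl4 livers and -2.72 ± 0.58 in CCl4 livers (SD, n = 6 and 4). The probe was kept through the CCl4 group alone, where it is bright, so no test of it is given and the size of the difference is uncertain. The authors' deposited table lists only this Wnt4 probe, with a log2 difference of -2.02.

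**Figure D2:**
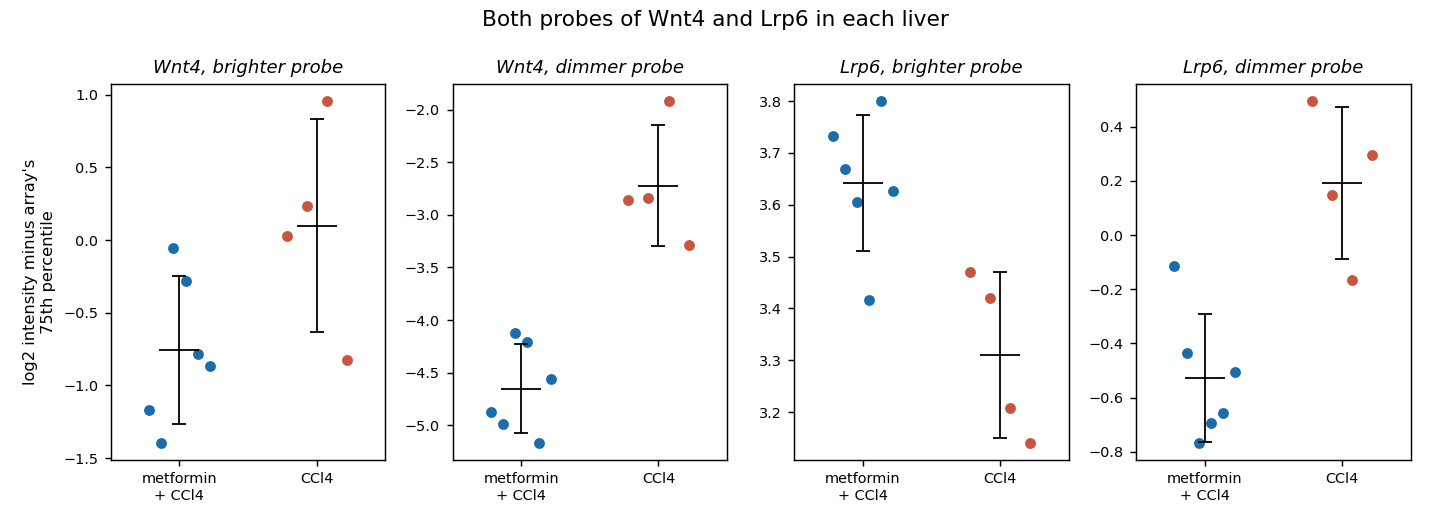
Level of both usable probes of Wnt4 and of Lrp6 in every liver (log2 intensity minus the array's 75th percentile), with 1 point per mouse, metformin plus CCl4 left of CCl4, and the mean with SD as bars. Both Wnt4 probes are lower on average in metformin plus CCl4 livers, while the brighter Lrp6 probe is higher there and the dimmer one is lower.

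Fzd4, a frizzled receptor that endothelial cells use in vessel growth, was 1.93-fold higher on average in metformin plus CCl4 livers, but the mice of that group differed widely. Metformin mice 1 to 6 had levels of 2.45, 2.48, 2.57, 1.09, 1.89 and 1.56, against 1.07, 0.78, 0.88 and 1.50 in CCl4 livers. Mice 1 to 3 of the metformin group were far above every CCl4 liver, whereas metformin mouse 4 was at the level of CCl4 mouse 1. The means were 2.01 ± 0.60 in metformin plus CCl4 livers and 1.06 ± 0.32 in CCl4 livers (SD, n = 6 and 4). The log2 fold change was 0.95 ± 0.30 (SE; 95% interval 0.29 to 1.61; limma adjusted p = 0.0240). The call rested on few mice: without CCl4 mouse 1, 2 or 3 the adjusted p was 0.0506, 0.0688 or 0.0629, and an exact permutation test over the 210 splits of the arrays, two-sided and adjusted over all features, gave 0.0543. The summed level of 24 endothelial markers was 103.2 to 167.7 in metformin plus CCl4 livers, against 145.7 to 157.9 in CCl4 livers. Of these markers 1 was called higher and 7 lower, against 28% higher and 17.4% lower over all features.

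Lrp6, a co-receptor that is phosphorylated when a ligand is bound, gave opposite results on its pair of probes. The brighter probe (A_55_P2118391) had levels of 3.42 through 3.65 to 3.80 in metformin plus CCl4 livers, against 3.47, 3.42, 3.21 and 3.14 in CCl4 livers. Only metformin mouse 4 lay within the range of the CCl4 livers. The log2 fold change was 0.33 ± 0.10 (SE; 95% interval 0.10 to 0.56; limma adjusted p = 0.0232).

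On the dimmer Lrp6 probe (A_55_P2041360) the levels were -0.77 through -0.58 to -0.11 in metformin plus CCl4 livers, against 0.50, 0.15, -0.17 and 0.30 in CCl4 livers. All metformin plus CCl4 livers except mouse 1 were below every CCl4 liver. Its log2 fold change was -0.72 ± 0.16 (SE; limma over all kept probes, adjusted p = 0.00414). The mean of both probes gave -0.19, which was not called (adjusted p = 0.195), so the direction of Lrp6 transcripts as a whole was not settled by these arrays, and which transcripts each probe reads was not tested.

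Lrp5, the related co-receptor known for its role in bone mass, was at 1.36 through 1.83 to 1.93 in metformin plus CCl4 livers, against 2.13, 2.29, 1.98 and 1.79 in CCl4 livers. Mice 1 to 3 of the CCl4 group lay above the whole metformin group and CCl4 mouse 4 did not. The log2 difference was -0.33 ± 0.15 (SE; 95% interval -0.66 to 0.0059; limma adjusted p = 0.0994). Metformin mice 1 and 2, which lay in the same row position as all CCl4 arrays but on the other slide, had the lowest levels, 1.43 and 1.36. The difference within that row position was -0.65 (limma adjusted p = 0.0312), and slide and metformin cannot be told apart there either.

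Ctnnb1 encodes beta-catenin, which serves both in the WNT pathway and in cadherin junctions, and it was 1.41-fold higher in metformin plus CCl4 livers. The level was 3.06 through 3.10 to 3.27 in metformin plus CCl4 livers, against 2.54, 2.58, 2.48 and 2.94 in CCl4 livers. The metformin plus CCl4 livers lay close together and above all CCl4 livers, of which mouse 4 came nearest. Means were 3.14 ± 0.090 in metformin plus CCl4 livers and 2.64 ± 0.21 in CCl4 livers (SD, n = 6 and 4), and the log2 fold change was 0.50 ± 0.10 (SE; 95% interval 0.27 to 0.73; limma adjusted p = 0.00323). Without CCl4 mouse 4 it was 0.60. With scaling on the control RNA it was -0.052 and was not called (adjusted p = 0.841), so that its direction holds relative to other genes, not against the added RNA.

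Apc, the scaffold of the destruction complex and a tumour suppressor in the gut, had levels of -1.03 through -0.75 to -0.46 in metformin plus CCl4 livers, against -0.90, -0.34, -0.91 and -1.21 in CCl4 livers. The CCl4 livers spanned a wider range than the metformin plus CCl4 livers and took in all of them. The log2 difference was 0.089 ± 0.17 (SE; 95% interval -0.29 to 0.47; limma adjusted p = 0.704). With scaling on the control RNA it was -0.46 and was called lower (adjusted p = 0.0367). A second Apc probe was well above background on 0 arrays and was left out.

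**Figure D3:**
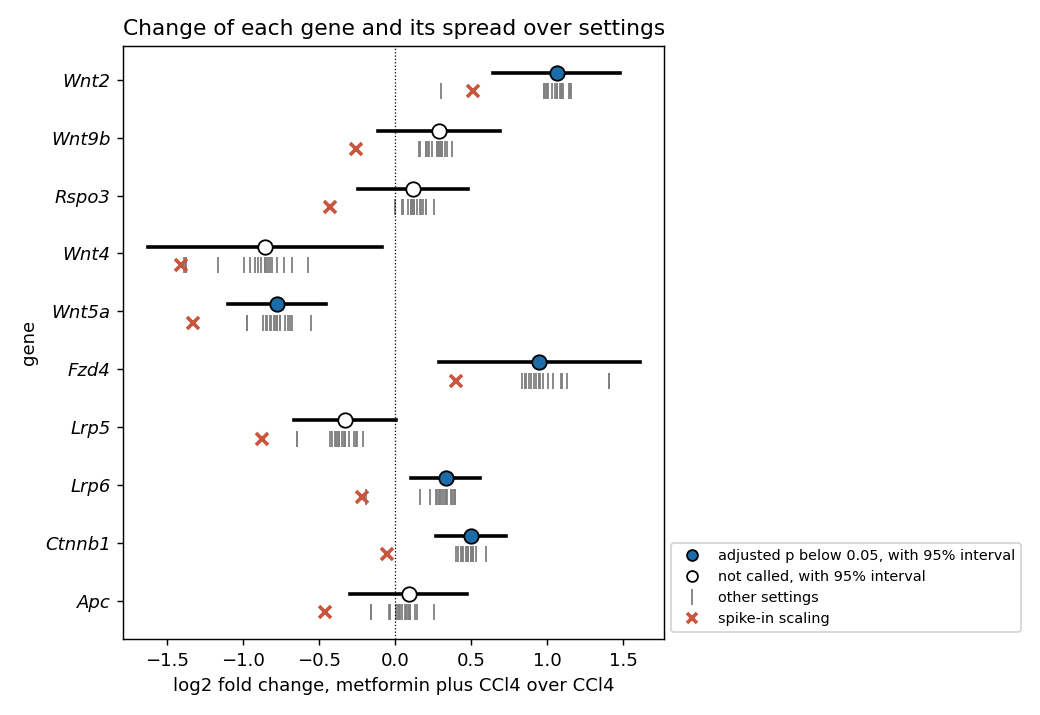
Log2 fold change, metformin plus CCl4 over CCl4, of each gene with its 95% interval (filled where the adjusted p is below 0.05), above the same value in the other settings (ticks) and with spike-in scaling (crosses). Crosses lie to the left of each point, and for Ctnnb1, Lrp6, Wnt9b, Rspo3 and Apc they lie on the other side of 0 from it.

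The way each gene varied from mouse to mouse within its group was compared with that of every other named gene tested, by Pearson's r over the 10 arrays after both genes were centred on their group means. These are the highest values among many genes and are given as a description. Ctnnb1 varied most like Abhd5 (0.979), Xkr9 (0.979) and Patj (0.954). For Wnt2 the nearest included Abcd2 (0.924) and Cyp4a31 (0.924), and for Wnt5a they were Clic1 (0.913), Tmpo (0.894) and Col6a2 (0.892). Fzd4 was nearest to Myzap (0.962), Ednrb (0.939) and Dnajb8 (0.928), although these 3 had log2 fold changes of -1.46, -0.96 and -2.56 between the groups while Fzd4 had 0.95. Lrp6 was nearest to Ppp2r3a (0.958), Ei24 (0.953) and Hbs1l (0.949). Among the uncalled genes, Rspo3 had Lhx2 (0.957), the WNT-related secreted protein gene Dkk3 (0.943) and 2310009B15Rik (0.941). Wnt4 had Ap3s2 (0.936), 2410080I02Rik (0.931) and Fcf1 (0.913), and Wnt9b had Ascc1 (0.935), Gsta3 (0.906) and Dele1 (0.895). Lrp5 had Map6d1 (0.985), Mettl7a3 (0.981) and Sart1 (0.980), and Apc had Nrsn2 (0.968), Pnmt (0.961) and Ambp (0.960).

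Among the genes around these 10, the list of R-spondins with their receptors and ligases had 4 of 5 tested genes higher and 0 lower (28% of all features were called higher and 17.4% lower), with a median log2 fold change of 1.28 against 0.10 over all features. Those 4 are receptors and ligases, and Rspo1, the only R-spondin tested in the list, was its uncalled gene (-0.45, limma adjusted p = 0.433). Rnf43, a ligase that removes frizzled receptors from the membrane and is itself a WNT target, had levels of 2.71, 2.37, 3.04, 2.42, 2.27 and 1.97 in metformin plus CCl4 livers, against 0.49, -0.16, -0.18 and 0.40 in CCl4 livers. Its log2 fold change was 2.33 ± 0.22 (SE; limma adjusted p = 4.66e-05), and it was called in all 21 other fits. The other ligase Znrf3 rose by 0.79, and the R-spondin receptors Lgr4 and Lgr5 by 1.52 and 1.28 on the log2 scale. Lgr5 and Znrf3 were not called with scaling on the control RNA. Lgr4 and Lgr5 were not called within the row position that both groups used, on separate slides.

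Among the other ligands and secretion factors, 2 rose, 2 fell and 4 did not pass, of 8 tested (28% of all features rose and 17.4% fell). Wnt9a was higher, but its probe was well above background on 6 of 6 metformin plus CCl4 arrays and on 1 of 4 CCl4 arrays and was kept through the metformin group alone, and the log2 difference was 2.44 as scaled and 0.57 with normexp. Wnt5b rose by 1.14, but with scaling on the control RNA it was at 0.59 and was not called. Wls, which carries WNT proteins to the surface, fell by 0.67, and Wnt10a was at least 2.19-fold lower (not well above background on any metformin plus CCl4 array). Porcn, the enzyme that attaches the lipid, had a log2 difference of -0.15 (limma adjusted p = 0.33). Of 12 other frizzleds and co-receptors, 3 rose and 5 fell, with Fzd1 (1.06) and Tspan12 (0.46) higher and Fzd6 (-1.59) and Ryk (-0.37) lower. With scaling on the control RNA, Fzd1 was at 0.51 and was not called. Of 21 other fits, Fzd7 (higher) was called in 15, Fzd5 (lower) in 16 and Reck (lower) in 7, all named for this reason. Secreted inhibitors counted 0 higher and 2 lower of 6, with Sfrp4 at least 2.31-fold lower and Frzb at -1.20, while Dkk3 was at -0.26 and did not pass. Wnt10a, Sfrp4 and Fzd2 (named for this reason) are counted as lower but were kept through the CCl4 group alone. The counts of this paragraph, which also include Wnt9a, therefore hold calls that the filter favoured.

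Downstream, 7 of 21 dishevelled and destruction complex partners rose and 3 fell (28% of all features rose and 17.4% fell). The largest changes among those whose groups did not overlap were Nkd2 (1.17), Amer1 (0.81), Csnk1g1 (0.52) and Csnk1e (-0.76). The 7 that rose include Csnk1d (0.43) and Gsk3b (0.29). Another probe of each was lower in the authors' deposited table, at -1.46 for Csnk1d and -0.95 for Gsk3b. The direction of Csnk1d and Gsk3b, named for this reason, was therefore not settled. In that table another Csnk1g1 probe was higher (0.66) and another Csnk1e probe was lower, as their tested probes were. Of 20 TCF factors and co-regulators, 6 rose and 1 fell, among them Pygo2 (0.97 on the log2 scale), Chd8 (0.52), Cdc73 (0.39), Tcf7l2 (0.72) and, lower, Tle1 (-0.62). Another Cdc73 probe stood at -0.83 in the authors' deposited table, and neither Cdc73 nor Tle1 was called by the mean of its probes, so their direction was not settled. The junction partners of beta-catenin counted 0 higher and 2 lower of 6, the 2 being Jup (-1.11) and Cdh1 (-1.01). In the planar cell polarity branch, which works without beta-catenin, 4 of 11 rose and 3 fell. Prickle3 (1.36) and Invs (0.71) were higher, Vangl1 (-0.59) was lower and Celsr3 was at least 2.09-fold lower. Celsr3 was kept through the CCl4 group alone, so the 3 that fell include a call that the filter favoured. Of 16 pericentral target genes, 8 rose and 3 fell, with Tbx3 (2.17), Sp5 (1.40) and Glul (1.05) higher. Rnf43, Lgr5 and Znrf3 are among these 8 as well. The 3 that fell, named after their values were seen, were Cyp1a2 (-1.21), Cyp27a1 (-1.01) and Rhbg (-0.63). Wls, Ryk, Cdc73, Tcf7l2 and Tle1 were not called within the shared row position, and Wls and Tcf7l2 were not called without CCl4 mouse 3. Ryk was called in 12 of 21 other fits and not without metformin mouse 4, CCl4 mouse 3 or CCl4 mouse 4. With scaling on the control RNA, Tspan12, Csnk1g1, Chd8 and Cdc73 turned to the other side of 0. Axin2, Lef1 and Sfrp1 did not pass the detection filter and were not tested.

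**Figure D4:**
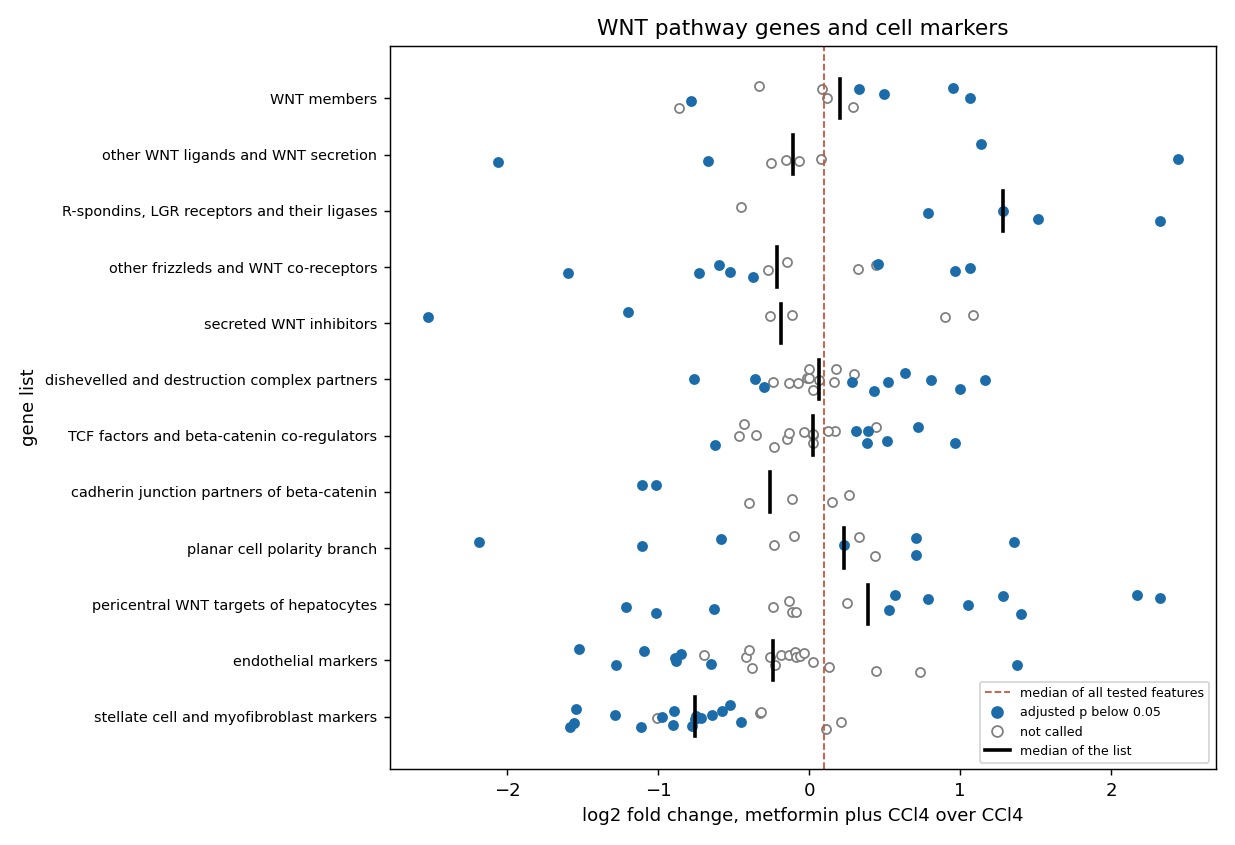
Log2 fold change, metformin plus CCl4 over CCl4, of each tested gene by list, filled where the adjusted p is below 0.05, with the median of the list as a bar and the median of all features (0.10) as a dashed line. Wnt10a, Sfrp4 and Celsr3, which were not well above background on any metformin plus CCl4 array, are drawn at their fitted values. The list of R-spondins with their receptors and ligases has the highest median, 1.28, and its called genes are receptors and ligases.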

How the data were processed

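Levels were read from single-colour Agilent scanner files made with Feature Extraction 10.7.3.1, per the file headers, one per liver; intensity values deposited by the authors are the scanner's processed signals, already background-subtracted and not normalised between arrays. From them levels were computed as log2 values from which the array's own 75th percentile (controls left out) was subtracted, irregular spots were left out and spots of a probe averaged. Probes had to be flagged as clearly measured in 75% or more of one group's arrays, and a gene was represented by its kept probe with the highest mean over the 10 arrays. Groups were compared with limma 3.58.1 (R 4.3.3) over 22184 features, two-sided, with no covariate, and the script was checked on simulated data. The authors' deposited table holds 4595 selected probes as quantile-normalised log2 values, per its file header; it correlated with the scanner values at 0.9997 or more, its centring is unknown, and it was used only for description. Replicates are separate mice.

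The 10 genes, the 9 pathway lists and the 5 marker lists were chosen with earlier results of these data known. Of each list, the text names up to 4 called genes (2 for markers) with the largest change among those whose groups did not overlap (markers: among all called), plus Axin2, Lgr5, Rnf43, Znrf3, Glul, Tcf7l2, Lef1, Dkk3, Sfrp1, Wls and Porcn. Scaling, background correction, filtering, probe choice, weights, slide row, a replicate block and left-out mice were tried as alternatives. A bound for a gene not well above background in a group is the other group's mean against, per array, the higher of that gene's signal and the dimmest well-measured signal. The planned mean spot signal was replaced by the median signal for normexp (offset 50). The text names the 3 genes most like each member in their variation within groups, of which 1 is not reported here. The number of arrays limits the precision.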

Additional observations from a re-analysis of the deposited data

Results flagged for a closer look

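No value of the 10 WNT genes stood far from its group by Dixon's test, and 6 of 112 groups of values over all named genes did; chance flags about 5% of groups. Frzb was at -1.31 in CCl4 mouse 3, with the next CCl4 liver at -2.13. Invs was at 2.09 in metformin mouse 6, with the next metformin plus CCl4 liver at 1.83. Flt4 was at -0.832 in CCl4 mouse 1, with the next at -1.23, and Erg was at -5.21 in CCl4 mouse 2, with the next at -4.03. Itga8 was at 2.15 in CCl4 mouse 3, with the next at 1.23, and Epcam was at -5.36 in CCl4 mouse 2, with the next at -3.04.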

How the results depend on the processing

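Compared were 21 other fits of 22 counts and values, an exact permutation test of the 10 members and the authors' deposited value for Wnt5a. Of these results, 401 kept their direction and their side of the threshold or, for counts, stayed close to the value reported. Of the rest, 33 counts moved further, 10 values turned in direction, 11 gained a call and 18 lost theirs. Wnt5a kept its direction and its call in every fit. The cause of the changes below was not tested. Spike-in scaling gave 0 members higher and 4 lower (against 4 and 1). It gave log2 fold changes of -0.052 for Ctnnb1, -0.26 for Wnt9b, -0.43 for Rspo3, -0.22 for Lrp6 and -0.46 for Apc, all turned, with Apc called lower, 0.51 for Wnt2 and 0.40 for Fzd4, both lost, and -1.41 for Wnt4 and -0.88 for Lrp5, both gained. Under it 2 genes were called in the R-spondin list, 4 secreted inhibitors, 11 TCF genes, 4 junction partners and 61 markers (38 before). Median scaling gave 2 members higher and 2 lower, with Fzd4 at 0.88 and Lrp6 at 0.27 (lost), Lrp5 at -0.40 (gained) and 5 of 8 called frizzleds and co-receptors. Normexp gave 0.17 for Lrp6 (lost) and 5 frizzleds and co-receptors, quantile normalisation gave 0.23 for Lrp6 (lost), and no filter gave 0.33 for Lrp6 (adjusted p = 0.0509). The mean of probes gave 2 members lower, Wnt4 at -1.39 (gained) and Lrp6 at -0.19 (turned). That Wnt4 mean takes in the dimmer probe, which was kept through the CCl4 group alone, so its call adds no support. Array weights gave 3 members lower, Wnt4 at -0.90 and Lrp5 at -0.39 (gained) and Apc at -0.041 (turned). Slide row as a covariate gave 3 members lower, Wnt4 at -1.38 and Lrp5 at -0.65 (gained), Lrp6 at 0.39 (lost) and Apc at -0.16 (turned). It called 2 genes of the R-spondin list, 4 of the frizzled list and 6 of the destruction complex list. Slide row 1 held 2 metformin and 4 CCl4 arrays, on separate slides. Within it 2 members were higher and 2 lower, with Ctnnb1 at 0.44 and Lrp6 at 0.39 (lost). Lrp5 was at -0.65 (gained) and Apc at -0.16 (turned). Called were 2 genes of the R-spondin list and 4 frizzled, 5 destruction complex and 3 TCF genes.

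Mouse numbers were used as a replicate block for mice 1 to 4 of each group. Same-numbered mice did not deviate together (correlations -0.093, -0.107, 0.117 and 0.027), and 1 of 4 metformin mice and 0 of 4 CCl4 mice correlated best with their own number. The block gave 2 members higher, Fzd4 at 1.09 and Lrp6 at 0.30 (not called), and 5 frizzled, 4 destruction complex and 3 TCF genes. By the exact permutation test over samples Fzd4 (0.95) was no longer called (adjusted p = 0.0543).

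Leaving out each mouse in turn gave 2 to 4 members higher, with the fewest without CCl4 mouse 3, and 1 to 2 lower, with 2 without metformin mouse 3 or CCl4 mouse 4. Over these fits the log2 fold change of Ctnnb1 was 0.45 to 0.60, of Wnt2 0.98 to 1.16, of Wnt4 -1.16 to -0.57, of Wnt5a -0.87 to -0.69 and of Fzd4 0.84 to 1.13. That of Lrp6 was 0.28 to 0.39 (lost without CCl4 mouse 3 or 4) and that of Apc -0.033 to 0.25 (turned without CCl4 mouse 4). Called frizzleds and co-receptors numbered 5 to 8, with 5 without CCl4 mouse 2, 3 or 4. Dim probes (Wnt2, the dimmer Wnt4 probe) are limited by their signal over background.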

Other observations

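Markers of the cells that make or receive WNT ligands were counted beside the members. Over all features 28% were called higher and 17.4% lower. Of 24 endothelial markers, Flt4, a receptor for vessel growth factors, stood at -1.52 and the transcription factor Erg at 1.38 on the log2 scale, which was well above background on 3 of 4 CCl4 arrays. Of the 16 stellate cell and myofibroblast markers that fell, Reln (-1.59) and Itga8 (-1.55) did so most. Of 13 hepatocyte markers, 1 rose and 3 fell, Tat by 1.36 and Cps1 by 0.75. Bile duct markers counted 1 higher and 5 lower of 9, led by Epcam (-1.46) and Krt19 (-1.17), and macrophage markers 0 higher and 4 lower of 13, led by C1qb (-1.22) and C1qa (-0.84). Epcam was called in 7 of 21 other fits, and with normexp the log2 difference was -0.46 for Epcam and 0.35 for Erg. The Epcam probe was dim, at -6.02 to -4.21 in metformin plus CCl4 livers against -3.04, -5.36, -2.68 and -2.63 in CCl4 livers. The filter may therefore have favoured the Epcam call, which is among the 5 lower. Axin2, a direct WNT target, was well above background on 1 of 6 metformin plus CCl4 arrays and on 0 of 4 CCl4 arrays.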
